A study of Mus musculus with 15 samples.

Results

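The genes described here code for the subunits of the proteasome. They were taken from the deposited table as every row whose symbol reads Psma, Psmb, Psmc or Psmd followed by a digit, with Psmb8 and Psmb9 left out. The pattern matched 40 rows, and 38 of the 23284 genes in the table remained. Of these, 37 code for proteasome subunits or for chaperones that help to build the particle. The other, Psmc3ip, shares the letters of its symbol but codes for a factor in meiotic recombination. The study measured RNA of kidney tissue from wild-type mice by RNA sequencing 2 h after vehicle, L-alanine (L-ala) or D-alanine (D-ala), with 5 libraries in each of the 3 groups. All animals were wild type and no allele or transgene was named. Strain, age, sex, dose, route and the vehicle's make-up were not given in the sources used here. The series' title names the effect of D-alanine. L-alanine and D-alanine are mirror-image forms of 1 amino acid, and since their doses are not given, a difference between them cannot be told apart from a difference in dose. The labels do not state that each library came from its own animal, so every p-value measures the spread between these libraries, which may be partly technical.

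The proteasome is the barrel-shaped protease that degrades proteins tagged with ubiquitin. Its core is built of outer alpha rings and inner beta rings. Psmb5, Psmb6 and Psmb7 are the beta subunits that cut peptide bonds. A regulatory cap sits on the core: its base holds a ring of ATPases (Psmc1 to Psmc6) that unfold the substrate and thread it into the core, and its non-ATPase subunits (Psmd) bind ubiquitin, remove it or form the lid. The subunits are used in fixed proportions in the finished particle, and the transcription factor NRF1, coded by Nfe2l1, is known to raise their genes together when proteasome activity is blocked, by way of antioxidant response elements (ARE) in their promoters.

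Promoter stretches of 4 genes are shown because 2 of them are catalytic subunits whose promoters hold an ARE core and the other 2 belong to the genes with the lowest p-values below. Each is the 100 bases before the RefSeq start site, 5′ to 3′ on the gene's strand, on the build GRCm38.p6. Capitals mark a match to the ARE core, TGACNNNGC, or to the CCAAT box, which reads ATTGG on the opposite strand. Psmb5 lies on the minus strand (chr14:54617996-54618095), Psmb6 on the plus strand (chr11:70525257-70525356), Psmc4 on the minus strand (chr7:28050093-28050192) and Psmd4 on the minus strand (chr3:95042615-95042714).
Psmb5: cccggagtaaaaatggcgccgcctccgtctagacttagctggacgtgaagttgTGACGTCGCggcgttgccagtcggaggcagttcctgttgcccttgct
Psmb6: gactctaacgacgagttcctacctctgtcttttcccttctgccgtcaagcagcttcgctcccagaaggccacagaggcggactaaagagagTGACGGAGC
Psmc4: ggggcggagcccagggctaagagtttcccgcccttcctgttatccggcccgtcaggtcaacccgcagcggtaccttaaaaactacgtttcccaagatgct
Psmd4: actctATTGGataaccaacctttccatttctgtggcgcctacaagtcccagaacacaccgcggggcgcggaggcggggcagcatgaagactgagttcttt
The ARE core began at position -47 in Psmb5 and at -9 in Psmb6, counted from the start site, and the CCAAT match in Psmd4 at -95. RefSeq promoters of 300 bases, from 250 before to 50 after the start, were matched for 31 of the 38 genes, which had 33 promoters. On either strand, 5 of the 33 (15.15%) held the ARE core, against 12.39% of all 32851 RefSeq promoters, and 13 (39.39%) held CCAAT, against 37.41%. Of the 10884 promoters of genes tested here, 14.75% held the ARE core and 36.96% CCAAT, against 15.62% and 37.5% of the 32 promoters of tested proteasome genes. Both shares lay close to those of all promoters. The 5 promoters with an ARE core belonged to Psmb5, Psmb6, Psmc6, Psmd9 and Psmd12. A match of letters is a description of the sequence and not a binding site.

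Before the values are compared, the libraries themselves need a word. Across genes within a library, the level of a gene relative to its mean over the 15 libraries varied with gene length. Spearman's rho with length ran from -0.50 to -0.19 in L-ala replicates 1 to 4 but was 0.24 in L-ala replicate 5. It ran from -0.10 to 0.39 in the vehicle libraries and from -0.06 to 0.35 in the D-ala libraries. A negative rho means that short transcripts stood higher. Proteasome transcripts are short, with a median of 1561 nucleotides for the 36 genes tested against 3026 for all genes tested that had a transcript length. L-ala replicate 5 stands apart from L-ala replicates 1 to 4, but its rho lay within the vehicle and D-ala ranges. L-ala replicates 1 to 4 lay below every vehicle and D-ala library. Counts that change without L-ala replicate 5 are given with and without it. Levels also varied with the share of G and C bases in the transcript (GC). Spearman's rho with GC ran from -0.25 to -0.0025 in vehicle, from -0.24 to 0.13 in L-ala and from -0.04 to 0.24 in D-ala. The depth recovered from the table was 7.57 to 10.9 M reads per library. Markers of the proximal tubule, the main cell type of the kidney cortex, were all present (7 of 7), so the tissue label holds. Their summed level was 85039 to 104511 FPKM in vehicle, 107547 to 143791 in L-ala and 77031 to 104284 in D-ala. Gene by gene they were less uniform. Against vehicle, 4 of the 7 were called higher with L-ala (Slc34a1, Slc5a2, Miox and Kap) and 3 with D-ala (Slc34a1, Slc22a6 and Miox). Of all genes tested, 6.48% and 6.53% were called higher. Between D-ala and L-ala the median difference of the 7 was 0.02, with Slc22a6 called higher and Kap lower. Sums of blood markers stood higher with L-ala as well: the 6 red blood cell markers found in the table summed to 262 to 744 FPKM there against 16.2 to 255 in vehicle and 34.9 to 456 in D-ala, and 6 neutrophil markers to 13.2 to 35.3 against 0.641 to 7.81 and 2.42 to 11.4. Against vehicle, 0 of the 4 red blood cell markers tested were called with L-ala. The 2 neutrophil markers tested, S100a8 and S100a9, were both called higher. The 3 markers of the thick ascending limb summed to 974 to 1404 FPKM in L-ala and 1072 to 1755 in D-ala against 1593 to 1863 in vehicle, and the 5 endothelial markers to 54.2 to 124 and 61.4 to 91.8 against 87.9 to 151. Umod was called lower with L-ala, as were 3 endothelial markers, and 2 endothelial markers with D-ala. The part of these cells in the results below was not tested. In tissue RNA, fewer cells of a type and less RNA per cell cannot be told apart.

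In FPKM (fragments normalised for transcript length and for library depth), a level that can be compared between genes, the proteasome transcripts were abundant but not equal. The beta ring gene Psmb4 stood highest, with a mean of 299 FPKM over the 15 libraries, followed by Psma7 at 222, Psmb6 at 221, Psmb7 at 194 and Psmb1 at 193. Among the ATPases the means ran from 72.5 FPKM (Psmc1) to 156 (Psmc3), and among the non-ATPase subunits from 15.9 (Psmd11) to 130 (Psmd4). The assembly chaperones Psmd5, Psmd9 and Psmd10, which guide the base and leave the finished particle, were lower, at 29.3, 16.4 and 22.9 FPKM. Within the alpha ring, Psma3 at 7.90 and Psma5 at 19.9 FPKM stood far below the other 5 tested members, which ran from 110 to 222. Of the 50-base windows of their annotated transcripts, 22.02% in Psma3 and 54.45% in Psma5 also occur in transcripts of other genes, chiefly processed copies. Reads from such windows could have been divided or dropped, so the levels of genes that share many windows are uncertain. Psma4, Psmb3 and Psmb5 shared 25.63%, 55.79% and 57.06% and stood at 136, 59.5 and 114 FPKM. The part of shared windows in any of these levels was not tested. In all, 8 of the 38 genes shared more than 10% of their windows, among them Psmb5 with 57.06%, and Psmd4, Psmc4, Psmd6 and Psmd8 shared none. Another annotated gene, on either strand, overlaps 18 of the 38.

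The genes that belong to other tissues were at the bottom. Psmb11, the beta subunit of the thymus, was listed at 0 in all 15 libraries. Psma8, the alpha subunit of the testis, ran from 0 to 0.321 FPKM, and the testis germ cell markers Tnp1 and Prm1 were listed at 0 in every library. Both genes fell below the filter of at least 1 FPKM in 5 or more libraries, so 36 of the 38 were tested. Psmb10, an inducible beta subunit of the immunoproteasome, had a mean of 10.98 FPKM, and Psmc3ip 4.13 FPKM.

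**Figure D1:**
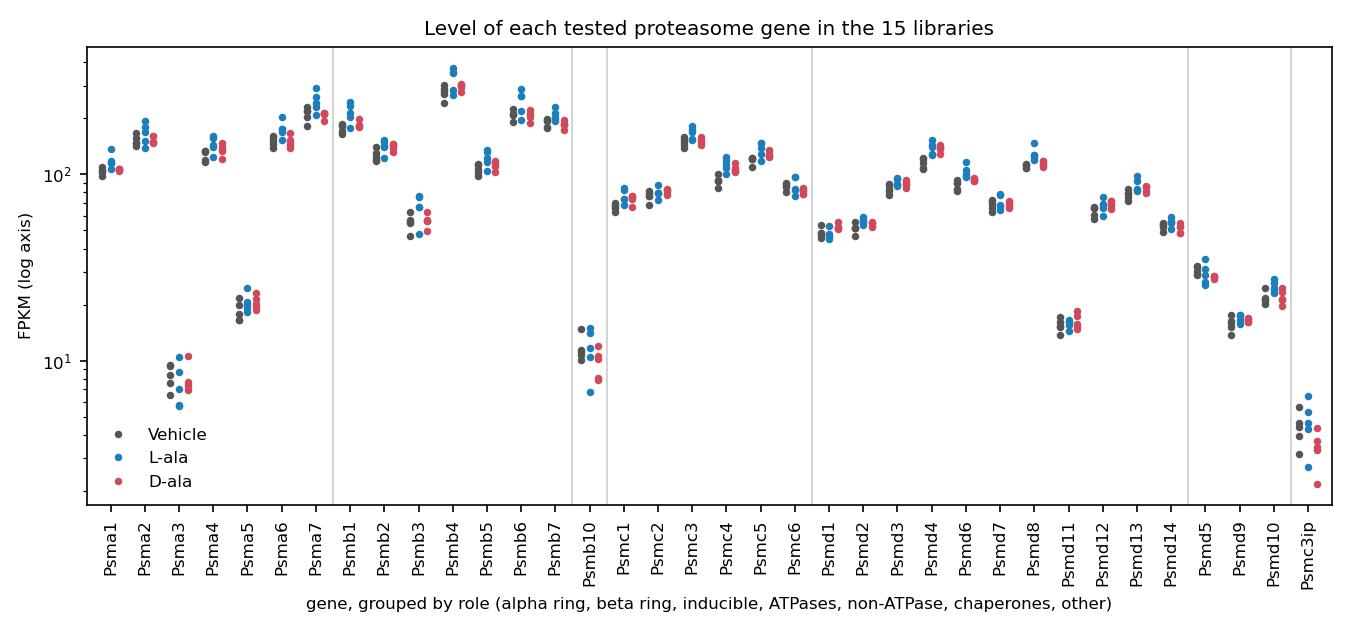
Level in FPKM (log axis) of the 36 tested genes, each point 1 library, coloured by group and set in order of role. Psmb4 is highest at a mean of 299 FPKM and Psmc3ip lowest at 4.13, and within most genes the 3 groups lie close together.

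Pooled over the 3 groups, libraries of 1 group differed less in these genes, by the median, than in all genes tested. The median within-group SD of the 36 genes was 0.0954 on the log2 scale, against 0.136 for all 11781 genes tested and 0.121 for the 1870 of them at a mean of 50 FPKM or more. Psmd2, the large scaffold of the base, varied least with 0.0624, and Psmc3ip most with 0.307. The median 95% interval of a difference reached 0.13 to either side of the estimate. The fit used 1 spread per gene for all 3 groups, although the groups differed in spread. The SD of the mean log2 level of the 36 genes in a library was 0.056 in vehicle, 0.098 in L-ala and 0.028 in D-ala.

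D-alanine against vehicle changed 2 of the 36 proteasome genes, both upward. They were Psmd4, a ubiquitin receptor of the cap, and Psmc4, an ATPase of the base. None fell and 34 did not pass limma's test at an adjusted p under 0.05. The 2 genes are 5.56% of the 36, and over all genes tested 11.5% were called, 6.53% as higher and 4.92% as lower, so the share was below that of all genes. At an unadjusted p under 0.05, 4 stood higher (11.1%, against 13.9% of all genes) and 0 lower. The median log2 difference was 0.06, against 0.0011 for all genes, and 26 of the 36 estimates lay above 0. The median turned to -0.0076 with quantile normalization, where all genes had -0.0145, and to -0.0030 with the rescaled counts, where all genes had -0.0604.

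Psmd4 (chr3:95032694-95042614, minus strand) was measured at 121, 107, 123, 108 and 115 FPKM in the vehicle libraries, at 137, 140, 138, 128 and 144 in D-ala and at 144, 127, 140, 152 and 129 in L-ala. Every D-ala library and every L-ala library stood above every vehicle library. The log2 difference of D-ala from vehicle was 0.26 (SE 0.06, limma adjusted p = 0.0108), and it was called under each of the 26 alternative settings tried, with adjusted p from 0.00144 to 0.0335. Its difference between D-ala and L-ala was -0.0086, with a 95% interval from -0.14 to 0.12.

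Psmc4 (chr7:28041707-28050101, minus strand) read 100, 92.5, 92.3, 85.1 and 93.2 FPKM in vehicle, 109, 105, 104, 103 and 115 in D-ala and 118, 108, 112, 124 and 101 in L-ala. No D-ala or L-ala library fell to the highest vehicle library, vehicle replicate 1. The difference of D-ala from vehicle was 0.21 (SE 0.06, limma adjusted p = 0.0365). The call was lost in 11 of the 26 alternatives: with quantile normalization it was 0.14 (adjusted p = 0.0593), with the GC trend removed 0.16 (adjusted p = 0.0705) and with the rescaled counts 0.14 (adjusted p = 0.0892), and on leaving out any of vehicle replicates 2 to 5, or of D-ala replicates 1, 2, 3 and 5, the adjusted p was 0.0545 to 0.09998. Psmc4 did not differ detectably between D-ala and L-ala, at -0.07 with an interval from -0.20 to 0.06.

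The catalytic subunits did not pass. Psmb5, the subunit with chymotrypsin-like activity (chr14:54614119-54618022), was at 107, 104, 112, 98.3 and 114 FPKM in vehicle and at 115, 111, 111, 103 and 117 in D-ala, for a difference of 0.06 with a 95% interval from -0.09 to 0.20. Psmb6, with caspase-like activity (chr11:70525367-70527858), was at 211, 209, 210.0, 192 and 224 in vehicle and 204, 208, 215, 188 and 223 in D-ala, a difference of -0.01 with an interval from -0.20 to 0.18. Psmb7, with trypsin-like activity (chr2:38588036-38644087), was at 198, 179, 195, 178 and 195 in vehicle and 187, 196, 185, 173 and 187 in D-ala, a difference of -0.03 with an interval from -0.15 to 0.09. In each of the 3 genes the D-ala and vehicle libraries overlapped.

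The other genes with a fixed place in this account gave no call for D-ala either. Psmd14, the lid's deubiquitinase (chr2:61711694-61800376), was at 54.0, 49.3, 53.3, 54.7 and 52.1 FPKM in vehicle, 56.5, 50.9, 54.8, 59.1 and 55.5 in L-ala and 52.6, 48.3, 54.5, 48.4 and 52.3 in D-ala. Its difference of D-ala from vehicle was -0.04, with an interval from -0.15 to 0.07. Psmb10 (chr8:105935735-105938444) was at 14.8, 10.7, 11.1, 10.1 and 11.5 in vehicle, 11.6, 10.4, 14.03, 15 and 6.79 in L-ala and 10.2, 7.81, 8.07, 10.6 and 12.02 in D-ala. For Psmb10 the D-ala difference was -0.24 (95% interval -0.60 to 0.12, limma adjusted p = 0.407), and all 3 groups overlapped. Psmc3ip (chr11:101091823-101095436), which is no subunit, was at 3.16, 4.37, 5.64, 3.92 and 4.61 in vehicle, 4.27, 6.47, 2.68, 5.29 and 4.64 in L-ala and 2.18, 4.34, 3.70, 3.45 and 3.29 in D-ala. Its D-ala difference was -0.28 (-0.65 to 0.08, limma adjusted p = 0.316).

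**Figure D2:**
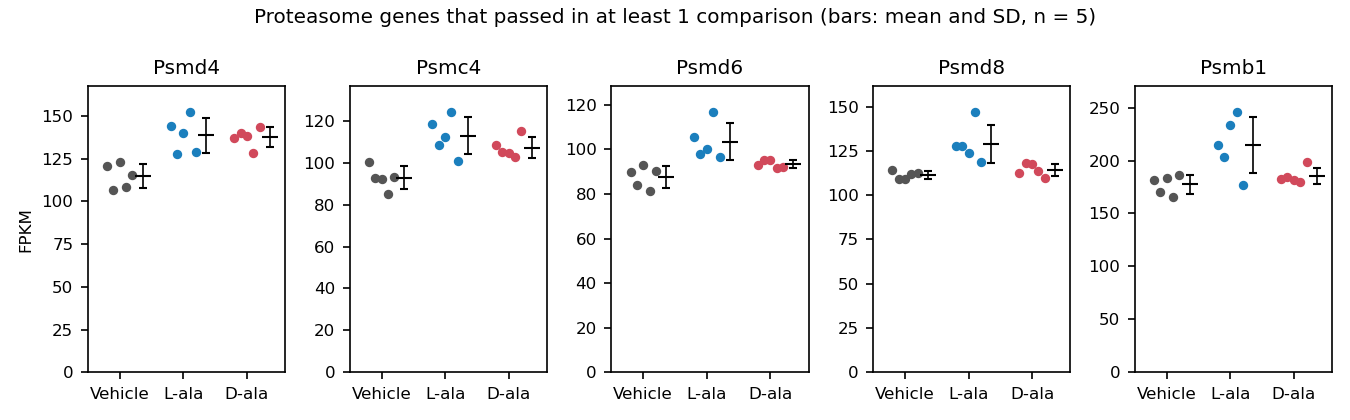
FPKM by library for the 5 proteasome genes that passed in at least 1 comparison, with the mean and SD of each group of 5 beside the points. Psmd4 and Psmc4 stand higher in both amino acid groups, and Psmd6, Psmd8 and Psmb1 passed against vehicle in L-ala.

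L-alanine against vehicle changed 5 of the 36 genes, all upward: Psmc4, Psmd4, Psmd6, Psmd8 and Psmb1. They belong to the base, the lid and the core, and none fell. The 5 are 13.9% of the 36, against 11% of all genes called, 6.48% as higher and 4.53% as lower. The estimates of the other genes mostly stood on the same side: 32 of the 36 lay above 0, the median was 0.16 against 0.0070 for all genes, and 22 of the 36 (61.1%) stood higher at an unadjusted p under 0.05, where 17% of all genes did. The 2 comparisons share their vehicle libraries.

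The size of this shift varied with the libraries kept and with whether the trend on gene length was removed. Without L-ala replicate 5, 18 of the 36 (50%) were called higher, and 13% of all genes were. This setting kept L-ala replicates 1 to 4, whose rho with length was negative. With the trend on gene length taken out of each library, 3 were called (Psmc4, Psmd2 and Psmd4; 8.33%, against 3.59% of all genes) and the median fell to 0.05. With both changes together, an alternative chosen after seeing the data, 2 were called (Psmb1 and Psmc4; 5.56%, against 5.62% of all genes) and the median was again 0.05. With quantile normalization 0 were called, against 1.99% of all genes, and the median was 0.03. With only the 2 groups compared, the D-ala libraries gave no part of the spread. Then 2 were called, Psmc4 and Psmd4 (5.56%, against 2.8% of all genes). Among the 36 genes, the 18 at or below the median transcript length had a median difference of 0.19 and the 18 longer ones 0.11. The cause of the length trend was not tested. Since L-ala replicates 1 to 4 carry it, a trend of the libraries and an effect of L-alanine on short transcripts cannot be told apart here.

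The mean log2 level of the 36 genes in a library shows the same. It was 6.08 ± 0.056 in vehicle, 6.22 ± 0.098 in L-ala and 6.12 ± 0.028 in D-ala (SD, n = 5 each). L-ala replicate 4 held the top, at 6.38, and was the highest of its group in 26 of the 36 genes, while L-ala replicate 5 at 6.12 was the lowest of its group in 19. With the length trend removed the means were 6.13 ± 0.036, 6.16 ± 0.050 and 6.14 ± 0.011, closer to each other than the spread within the L-ala group.

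**Figure D3:**
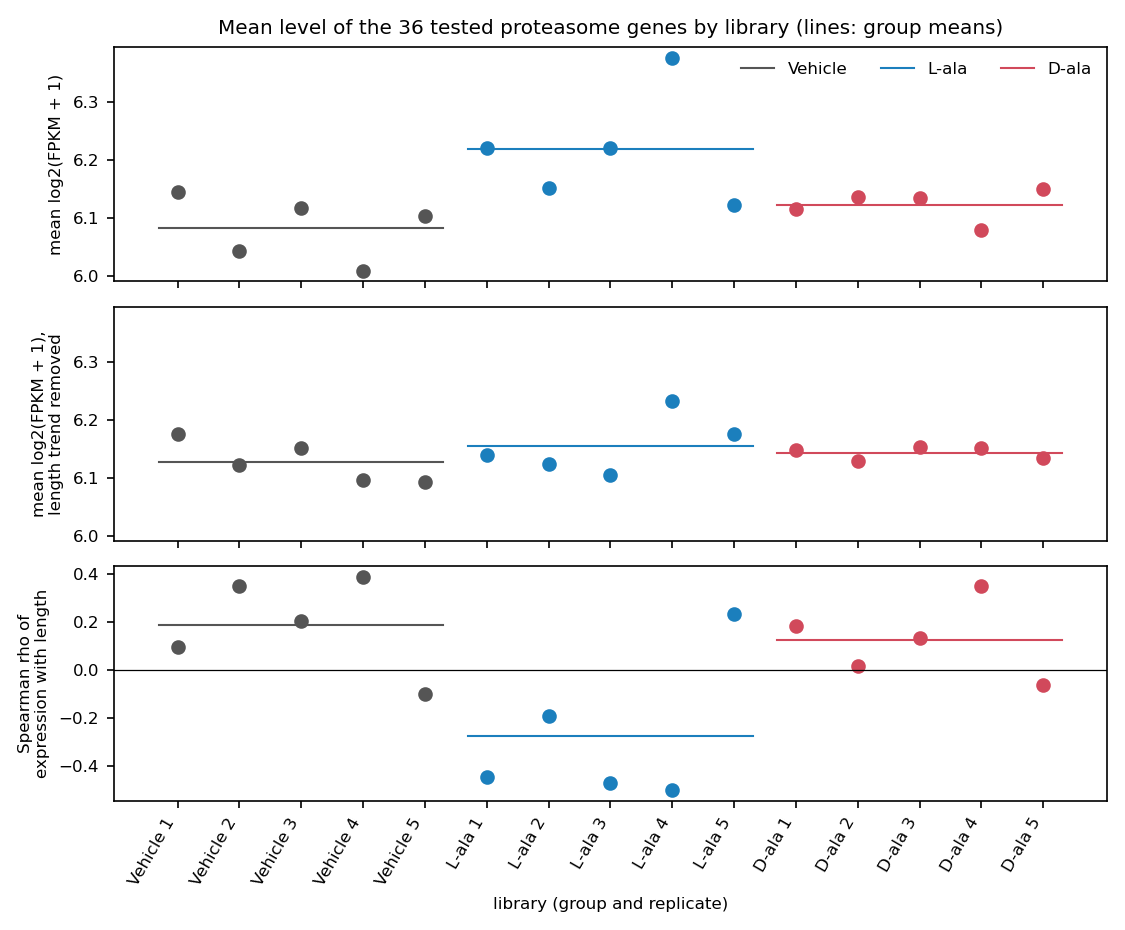
Mean log2(FPKM + 1) of the 36 tested genes in each library as deposited (top), the same with the length trend removed (middle) and Spearman's rho between a library's gene levels and gene length (bottom), with lines for group means. The L-ala mean of 6.22 falls to 6.16 in the middle panel, and L-ala replicate 5 stands at a rho of 0.24 where the other L-ala libraries are at -0.19 or below.

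Psmd4 and Psmc4 passed for L-ala with differences of 0.27 (SE 0.06, limma adjusted p = 0.0151) and 0.28 (SE 0.06, limma adjusted p = 0.0135). Without vehicle replicate 4 the adjusted p of Psmd4 was 0.05002, just over the threshold, and with quantile normalization it was 0.156 and the difference 0.11. Psmc4 kept its call under 25 of the 26 alternatives and lost it with quantile normalization (difference 0.12, adjusted p = 0.131).

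Psmd6, a lid subunit (chr14:14112174-14120984), was at 89.9, 83.9, 93.1, 81.1 and 90.3 FPKM in vehicle and at 105, 97.9, 100.2, 117 and 96.3 in L-ala, with every L-ala library above every vehicle library. Its difference was 0.23 (SE 0.06, limma adjusted p = 0.0209). The adjusted p was 0.0683 without vehicle replicate 4 and 0.0528 without L-ala replicate 4. Psmd8, another lid subunit (chr7:29174188-29180701), was at 114, 109, 109, 112 and 113 in vehicle and at 128, 128, 124, 147 and 119 in L-ala, again without overlap. Its difference was 0.21 (SE 0.05, limma adjusted p = 0.0259), and the adjusted p was 0.0506 to 0.0649 without vehicle replicate 2 or 4 or L-ala replicate 1 or 4. With the length trend removed, Psmd6 and Psmd8 were both 0.12 (adjusted p = 0.107 and 0.117), and with quantile normalization 0.07 and 0.06 (adjusted p = 0.323 and 0.460). Genes whose L-ala libraries all stood above vehicle were 4 of the 36 (Psmc4, Psmd4, Psmd6 and Psmd8), 11.1%, against 4.01% of all genes, and none lay wholly below, against 3.23%.

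Psmb1, a beta ring subunit without catalytic activity (chr17:15475021-15499751), was at 182, 170, 184, 165 and 186 FPKM in vehicle and at 214, 203, 233, 246 and 177 in L-ala. L-ala replicate 5 lay within the vehicle range and the other 4 L-ala libraries above it. The difference was 0.26 (SE 0.07, limma adjusted p = 0.0354), and the adjusted p was 0.0534 to 0.0997 without vehicle replicate 1, 2 or 4 or L-ala replicate 1, 3 or 4. It was 0.11 with the length trend removed (adjusted p = 0.0936), 0.09 with quantile normalization (adjusted p = 0.289) and 0.16 with the rescaled counts (adjusted p = 0.0943).

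The catalytic subunits showed positive L-ala estimates that did not pass. In the L-ala libraries, Psmb5 was at 122, 117, 133, 135 and 105 FPKM, Psmb6 at 264, 220, 265, 288 and 195 and Psmb7 at 204, 194, 213, 232 and 198. L-ala replicate 5 was the lowest L-ala library for Psmb5 and Psmb6 and lay within their vehicle range. The differences from vehicle were 0.19 for Psmb5 (95% interval 0.04 to 0.33, limma adjusted p = 0.0827), 0.22 for Psmb6 (0.03 to 0.41, limma adjusted p = 0.104) and 0.14 for Psmb7 (0.02 to 0.26, limma adjusted p = 0.119). Without L-ala replicate 5, Psmb5 (0.24, adjusted p = 0.0122) and Psmb6 (0.30, adjusted p = 0.0106) passed. Once the length trend was removed, Psmb5 was 0.0096, Psmb6 0.07 and Psmb7 -0.03, and with both changes together Psmb5 was 0.01, Psmb6 0.11 and Psmb7 -0.05.

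By role, the L-ala estimates were above 0 in 7 of 7 beta ring genes (median 0.22, 1 called), 6 of 6 ATPases (median 0.17, 1 called), 6 of 7 tested alpha ring genes (median 0.18, 0 called) and 10 of 11 non-ATPase subunits (median 0.11, 3 called). The D-ala medians were smaller: 0.06 in the beta ring, 0.09 in the ATPases, 0.01 in the alpha ring and 0.09 in the non-ATPase subunits. Of the 3 chaperones none was called in either comparison. Psmc4, Psmd4 and the ATPase gene Psmc5 had D-ala libraries that all exceeded all those of vehicle (3 of 36, 8.33%, against 6.12% of all genes), and Psmc5, at 125 to 135 FPKM against 109.5 to 122, did not pass (0.10, limma adjusted p = 0.317). The chaperone Psmd5 had every D-ala library below every vehicle library, at 27.5 to 28.4 FPKM against 28.8 to 32.3, yet its difference of -0.11 did not pass (limma adjusted p = 0.340), and 4.76% of all genes were separated in that direction.

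**Figure D4:**
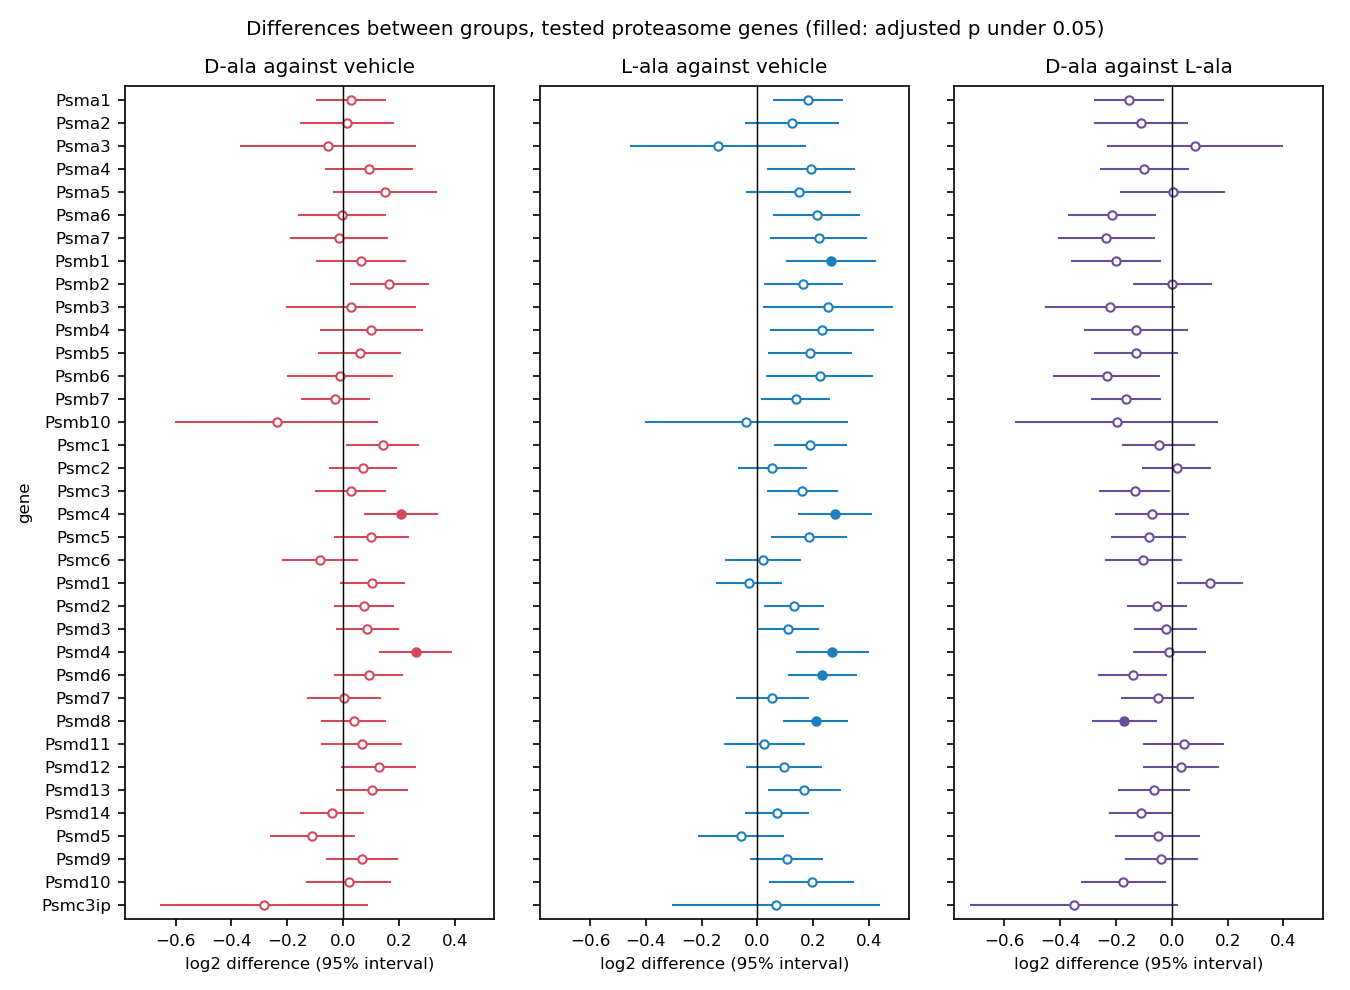
Log2 difference with its 95% interval for each of the 36 genes, in order of role, in the 3 comparisons, with filled points for an adjusted p under 0.05. The D-ala panel centres near 0.06, the L-ala panel near 0.16, and the D-ala against L-ala panel near -0.10, with 2, 5 and 1 filled points.

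Set directly against L-alanine, D-alanine differed in 1 of the 36 genes, Psmd8, which was lower with D-ala. Its D-ala libraries read 113, 118, 118, 113 and 110 FPKM, all below the lowest L-ala library at 119 and overlapping vehicle. The difference was -0.17 (SE 0.05, limma adjusted p = 0.0460). The call was lost in 22 of the 26 alternatives and without any library but L-ala replicate 5 (adjusted p 0.0539 to 0.105). It was -0.10 with the length trend removed (adjusted p = 0.126) and -0.07 with quantile normalization (adjusted p = 0.294). Over all genes 13.7% were called, 7.01% as higher and 6.66% as lower, and 1 of 36 is 2.78%. The median was -0.10 against -0.0090 for all genes, and 29 of the 36 estimates lay below 0. Psmd6 also had all D-ala libraries, 91.8 to 95.3 FPKM, below all L-ala libraries, as 4.02% of all genes did, and no proteasome gene lay wholly above, as 5.08% of all genes did. At an unadjusted p under 0.05, 10 stood lower (27.8%, against 16.4% of all genes) and 1, Psmd1, higher (2.78%, against 14.4%). Psmb1 in D-ala read 182, 185, 182, 180 and 199 FPKM, which overlapped both other groups.

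That count too changed when L-ala replicate 5 was left out. Without it, 10 genes (27.8%, against 12.8% of all genes) were called lower with D-ala than with L-ala (Psma6, Psma7, Psmb1, Psmb3, Psmb5, Psmb6, Psmb7, Psmc3, Psmd6 and Psmd8) and 1 higher, Psmd1 (2.78%, against 10.7%). With the length trend removed, 0 were lower (against 7.02% of all genes) and 1 was higher, Psmb2 (2.78%, against 5.6%), and the median was -0.02. With the length trend removed and L-ala replicate 5 left out together, the counts were again 0 (against 9.6% of all genes) and 1 (2.78%, against 7.45%), and the median was -0.0072.

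Around the proteasome itself, 44 of 45 listed genes of the pathway were in the table and all 44 were tested. They comprise regulators, assembly factors, ubiquitin shuttles, transcription factors and ubiquitin genes. With D-ala, 7 rose and 2 fell; with L-ala, 8 rose and 1 fell; between D-ala and L-ala, 2 were higher and 2 lower. Over all genes tested, 6.53% were called higher and 4.92% lower with D-ala, 6.48% and 4.53% with L-ala, and 7.01% and 6.66% between them, and the pathway counts below are to be read against these shares. In other settings the shares over all genes differed and are given in brackets, higher and then lower. Without L-ala replicate 5 the pathway counts were 9 and 2 (7.56% and 5.98%), 12 and 3 (13% and 8.93%), and 3 and 9 (10.7% and 12.8%). For L-ala they were 2 and 1 with quantile normalization (1.99% and 2.89%), 6 and 2 with the length trend removed (3.59% and 2.92%) and 5 and 4 with the rescaled counts (2.42% and 15.3%). For D-ala these 3 settings gave 6 and 2 (6.28% and 7.1%), 7 and 2 (7.3% and 7.34%), and 4 and 2 (4.55% and 10.6%).

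Of 8 ubiquitin and activation genes, 1 rose with each amino acid, Ubb in both. Ubb, which codes for a ubiquitin precursor, was at 299.95, 342, 305, 301 and 349 FPKM in vehicle, 356, 368, 402, 409 and 377 in L-ala and 396, 409, 365, 342 and 414 in D-ala. All L-ala libraries stood above vehicle, and the D-ala libraries overlapped it. Ubb differed by 0.26 with L-ala (limma adjusted p = 0.0272) and by 0.27 with D-ala (limma adjusted p = 0.0176). The Ubb call for L-ala was lost without vehicle replicate 1, 3 or 4 or L-ala replicate 3 or 4 (adjusted p 0.0524 to 0.0804), with quantile normalization (difference 0.07, adjusted p = 0.440), with the length trend removed (0.12, adjusted p = 0.184), with the rescaled counts (0.15, adjusted p = 0.0794) and when the 3 shallowest libraries were left out (0.21, adjusted p = 0.111), and that for D-ala without vehicle replicate 4 (0.0526). The other 7 genes of that list passed in neither.

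Among assembly and associated factors, 4 of 13 rose with L-ala and 1 with D-ala, where 6.48% and 6.53% of all genes were called higher. Pomp, the chaperone that helps the beta rings of the core to form, was at 214, 194, 185, 175 and 188 FPKM in vehicle, 267, 238, 262, 298 and 211 in L-ala and 207, 206, 203, 197 and 217 in D-ala. Only L-ala replicate 5 of the L-ala libraries fell within the vehicle range. Pomp rose by 0.41 with L-ala (SE 0.08, limma adjusted p = 0.00799), in all 26 alternatives, although quantile normalization gave 0.21. With D-ala it was 0.11 (limma adjusted p = 0.404), and it was lower with D-ala than with L-ala by -0.30 (limma adjusted p = 0.0224; 0.0508 to 0.0595 when L-ala replicates 1 and 4 and D-ala replicate 4 were left out singly). This difference of Pomp with the length trend removed was -0.11 (adjusted p = 0.156).

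Akirin2, known to bring proteasomes into the nucleus, was at 29.9, 33.4, 32.5, 28.3 and 31.3 FPKM in vehicle, 41.9, 37.9, 49.2, 47.7 and 37.3 in L-ala and 36.8, 35.6, 37.5, 37.7 and 38.8 in D-ala, with no overlap of either group with vehicle. It rose by 0.44 with L-ala (SE 0.07, limma adjusted p = 0.00405), called under all 26 alternatives, and by 0.26 with D-ala (SE 0.07, limma adjusted p = 0.0355). The D-ala call was lost on leaving out any of vehicle replicates 1, 4 and 5 and any D-ala library but replicate 2 (adjusted p 0.0573 to 0.0972). It was also lost without a filter (adjusted p = 0.0525) and with the rescaled counts (adjusted p = 0.0680). Shfm1, the smallest subunit of the cap, and Psmg2, an alpha ring chaperone, passed for L-ala at 0.38 and 0.19, with 6 and 8 single libraries whose removal ended the call (adjusted p up to 0.0849 and 0.109). With the length trend removed they were 0.13 (adjusted p = 0.154) and 0.04 (adjusted p = 0.755), with quantile normalization 0.17 (adjusted p = 0.131) and 0.13 (adjusted p = 0.124), and Psmg2 was 0.09 (adjusted p = 0.364) with the rescaled counts. Uchl5, a deubiquitinase of the cap, was lower with D-ala than with L-ala by -0.28 (limma adjusted p = 0.0376). That call was lost in 12 of the 26 alternatives, 7 of them single libraries (adjusted p up to 0.106). The others were no filter (0.0583), quantile normalization (0.0604), the GC trend removed (0.0689), only the 2 groups compared (0.0605) and the rescaled counts (0.0523).

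Of 10 shuttle and unfoldase genes, 3 rose with L-ala and 2 with D-ala, against the same 6.48% and 6.53% of all genes. Vcp, the ATPase that extracts ubiquitinated proteins, was at 32.4 to 38.8 FPKM in vehicle, 40.4 to 46.5 in L-ala and 39.1 to 41 in D-ala. It rose by 0.28 with L-ala (SE 0.05, limma adjusted p = 0.00912, lost only with quantile normalization, where it was 0.17 at an adjusted p of 0.0525). Its D-ala difference of 0.16 did not pass (limma adjusted p = 0.0585), though all D-ala libraries stood above vehicle. Nsfl1c, a Vcp cofactor, rose by 0.33 with L-ala (0.21 and lost with quantile normalization, adjusted p = 0.0577) and by 0.24 with D-ala, the latter lost without any one of 10 libraries (adjusted p 0.0514 to 0.121). Ufd1l, another cofactor, rose by 0.24 with D-ala, lost on leaving out any of vehicle replicates 2 and 4 and D-ala replicates 2 and 5 (0.0516 to 0.0579) and with the rescaled counts (0.0535). Ubqln1, a shuttle, passed for L-ala at 0.14, and 13 single libraries ended the call (up to 0.117). It was 0.03 with quantile normalization (adjusted p = 0.657) and with the rescaled counts (adjusted p = 0.622).

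Among 6 genes for transcription factors and their processing, 3 rose and 1 fell with D-ala, and 1 fell with L-ala, against 6.53% higher and 4.92% lower of all genes with D-ala and 4.53% lower with L-ala. Nfe2l1 itself was at 56.7, 59.8, 60.5, 61.0 and 60 FPKM in vehicle, 62.8, 59.6, 57.9, 56.6 and 58.6 in L-ala and 59.6, 58.7, 57.3, 60.9 and 53.7 in D-ala, and passed in neither (-0.01 with L-ala and -0.04 with D-ala). Its small MAF partners rose with D-ala. Maff rose by 1.51 (SE 0.35, limma adjusted p = 0.0139), from 3.48 to 8.53 FPKM in vehicle to 8.57 to 34.5 in D-ala, and Mafg by 0.59 (SE 0.13, limma adjusted p = 0.00664), from 10.6 to 16.4 FPKM to 17.6 to 23.5. Both were called under all 26 alternatives. Their L-ala differences of 1.09 and 0.38 did not pass (limma adjusted p = 0.0606 and 0.0580), and neither differed detectably between D-ala and L-ala (0.42 and 0.21, limma adjusted p = 0.436 and 0.269). Mafk rose by 0.26 with D-ala (limma adjusted p = 0.0187). The adjusted p was 0.0522 without D-ala replicate 2 and 0.0542 with the GC trend removed, where the difference was 0.20.

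Mafk and Nfe2l2 separated the amino acids in the direct test. Mafk was higher with D-ala than with L-ala by 0.42 (SE 0.07, limma adjusted p = 0.00119), at 18.6 to 22.5 FPKM against 13.2 to 16.6. Nfe2l2, which codes for NRF2, was higher by 0.37 (SE 0.06, limma adjusted p = 0.00115), at 51.0 to 53.1 FPKM against 36.2 to 42.6. Both calls held in all 26 alternatives. Against vehicle, Nfe2l2 fell by 0.20 with L-ala (limma adjusted p = 0.0375), a call that 7 single libraries ended (up to 0.105). This call was also lost without a filter (0.0508), with only the 2 groups compared (0.0881) and without the 3 libraries of lowest depth (0.0652). The D-ala difference of Nfe2l2, 0.17, did not pass (limma adjusted p = 0.0608). Ngly1, the enzyme that NRF1 needs to mature, fell by 0.20 with D-ala (limma adjusted p = 0.0218). The adjusted p was 0.0574 to 0.0595 without D-ala replicate 1 or 3. With the GC trend removed the difference was -0.15 (adjusted p = 0.0837).

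Among regulators, the caps Psme1, Psme2, Psme3 and Psme4 passed in none of the 3 comparisons. Psmb8, an immunoproteasome subunit, was at 14, 9.97, 7.41, 10.5 and 11.3 FPKM in vehicle and 7.71, 5.54, 8.89, 6.86 and 8.07 in D-ala, and the groups overlapped through vehicle replicate 3. It fell by 0.46 with D-ala (SE 0.14, limma adjusted p = 0.0399), and 9 single libraries ended the call (0.0512 to 0.0980). So did no filter (0.0627), only the 2 groups compared (0.0610) and leaving out the 3 libraries of lowest depth (0.0794). In L-ala, Psmb8 was at 7.32 to 10.07 FPKM, and its difference from vehicle of -0.27 did not pass (limma adjusted p = 0.193). Psmb8 did not differ detectably between D-ala and L-ala (-0.19, limma adjusted p = 0.362). Psmb9, another immunoproteasome subunit, was -0.33 with D-ala and -0.29 with L-ala and passed in neither (limma adjusted p = 0.151 and 0.182). Macrophage markers moved the same way, with a summed level of 44.9 to 64.9 FPKM in D-ala against 65.2 to 90.2 in vehicle for all 7 listed, and their part in the level of Psmb8 was not tested.

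**Figure D5:**
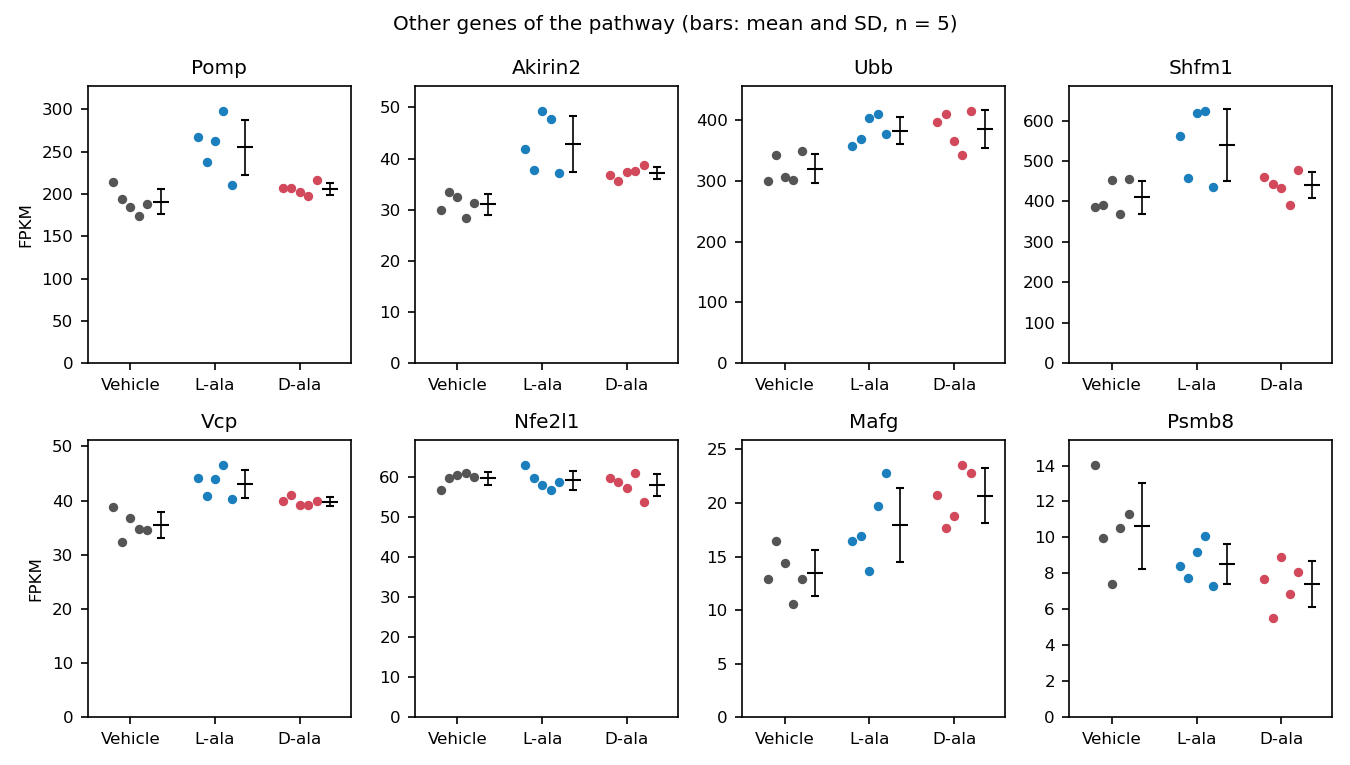
FPKM by library of 8 other genes of the pathway, with the mean and SD of each group of 5. Akirin2 and Vcp stand higher in both amino acid groups, Pomp and Shfm1 in L-ala, Mafg most in D-ala, and Nfe2l1 is level at about 57 to 61 FPKM in vehicle.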

How the data were processed

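Kidney RNA of 15 libraries was analysed from 1 deposited table. Per the labels' protocols, TRIzol was used for extraction and a stranded mRNA kit for the libraries. TopHat2 2.0.13, Bowtie2 2.2.3, SAMtools 0.1.19 and mm10 are named, per the submitters' processing notes, without roles. Which program and annotation gave the gene values, and whether strand was used, is not given in the sources used here. Tests were run on the deposited FPKM, a unit given per the file headers. The deposited columns headed count are used as a score, not as counts: gaps and doublings in the low values look like whole counts multiplied by 1 factor per library and rounded again, a step that no source states. Depth was recovered on that reading, and no count model was fitted. The FPKM give no counting interval, so precision comes from the libraries' spread.

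The 11781 genes that reached 1 FPKM in 5 libraries were tested as log2(FPKM + 1), a scale that understates changes of low genes. limma 3.58.1 in R 4.3.3 fitted 1 mean per group with a mean-variance trend and robust variances, and Benjamini-Hochberg adjustment ran over all genes within each of 3 comparisons, with calls at 0.05. The pipeline was tested on simulated data with independent noise per gene, the same spread in each group and no length or GC trend. That test therefore cannot show how such trends affect the calls. Gene length for trends was the rescaled count per FPKM (11579 tested genes), coordinates come from GENCODE M21 (GRCm38, of which mm10 is another name), and promoters from RefSeq. Of the table's symbols, 20911 matched the annotation directly and 1941 as older symbols.

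Members and lists were chosen with earlier results of these data known. Values in every library are given for members called in a comparison (up to 5 per direction) and for Psmb5, Psmb6, Psmb7, Psmb10, Psmd14, Psmd4 and Psmc3ip. From the pathway lists, called genes are named and always Nfe2l1, Pomp, Ubb and Psme1 to Psme4; 1 gene of these lists is not reported here. Alternatives were another pseudocount (0.1), no filter, median-of-ratios scaling, quantile normalization, length or GC trends removed, only the 2 groups compared, plain empirical Bayes, the rescaled counts, leaving out the 3 libraries of lowest depth or each library in turn, and 1 added combination.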

Additional observations from a re-analysis of the deposited data

Results flagged for a closer look

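Of 36 groups of 5 libraries checked, for the 11 proteasome genes given by library and the mean level of the tested genes in 3 groups each, 2 held a library far from the rest, and chance gives about 1 in 20. Psmb1 read 198.996 FPKM in D-ala replicate 5, where the gap to the next library was 0.756 of the group's range. Psmb10 read 14.758 FPKM in vehicle replicate 1, with a gap of 0.711 of the range.

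The effects of D-alanine and L-alanine, each against the same vehicle libraries, differed in Psmd8 by -0.1699 on the log2 scale (limma adjusted p = 0.0460). Psmd8 was lower with D-ala in 5 of 5 libraries than in any L-ala library. This call was lost in 22 of the 26 alternatives.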

How the results depend on the processing

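No paired analysis was possible because the labels give no replicate numbers that the groups share. For D-ala against vehicle, 1 gene was higher under quantile normalization, GC trend removal and the rescaled counts (6.28%, 5.73% and 4.55% of all genes). When single libraries were left out, 1 to 2 were higher (4.27% to 7.56% of all genes). Quantile normalization gave 1 lower gene, Psmb7 (7.1% of all genes), and a median of -0.0076. For L-ala against vehicle, the higher genes numbered 0 under quantile normalization (1.99% of all genes), 3 with the length trend removed (3.59%) and 2 with only the 2 groups compared (2.8%). They numbered 2 with the rescaled counts (2.42% of all genes), 2 with the length trend removed and L-ala replicate 5 left out together (5.62%), and 1 to 18 when single libraries were left out (1.48% to 13%). The median was 0.0254, 0.0482, 0.0571 and 0.0468 under quantile normalization, length trend removal, the rescaled counts and the added combination. Under the rescaled counts all genes had a median of -0.0918, with 2.42% called higher and 15.3% lower against 6.48% and 4.53% in FPKM, so the members stood 0.15 above all genes, against 0.16 in FPKM. For D-ala against L-ala, 4 genes were lower under GC trend removal or without the 3 libraries of lowest depth (7.65% and 7.55% of all genes). None was lower without a filter (3.15% of all genes), under median-of-ratios scaling (6.09%), quantile normalization (4.58%), length trend removal (7.02%), only the 2 groups compared (3.49%), plain empirical Bayes (6.12%), the rescaled counts (4.07%) and the added combination (9.6%). Higher genes numbered 1 under length trend removal, without the 3 libraries of lowest depth and under the added combination (5.6%, 6.54% and 7.45% of all genes). Leaving out single libraries gave 0 to 10 lower (2.58% to 12.8% of all genes) and 0 to 1 higher genes (3.97% to 10.7%). The median was -0.0174 under quantile normalization, -0.0212 under length trend removal and -0.0072 under the added combination. These changes of setting left the signs of every called proteasome gene as they were, while several uncalled values near 0, and the called Psmg2, changed sign. For D-ala against vehicle these were Psmb5 under quantile normalization (-0.0089) and the rescaled counts (-0.0054), and Psmb6 without vehicle replicate 5 (0.0131) or D-ala replicate 4 (0.0235). For L-ala against vehicle they were Nfe2l1 with the length trend removed (0.0445), without L-ala replicate 4 (0.0030) and in the added combination (0.0632), Psmb7 under quantile normalization (-0.0332), with the length trend removed (-0.0258) and in the added combination (-0.0546), and Psmg2 in the added combination (-0.0212). For D-ala against L-ala they were Psmc4 under quantile normalization (0.0197) and length trend removal (0.0040), and Psmd4 under quantile normalization (0.0926), length trend removal (0.0902), the rescaled counts (0.0320), without the 3 libraries of lowest depth (0.0044), without L-ala replicate 1 (0.0057) or 4 (0.0260), without D-ala replicate 4 (0.0162) and in the added combination (0.0981). Leaving out single libraries moved the affected ones from -0.0419 (Psmb6, without vehicle replicate 4), -0.0342 (Nfe2l1, without L-ala replicate 1) and -0.0378 (Psmd4, without L-ala replicate 2) to the values above. Psma8 and Psmb11 were below the filter and not tested.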
